A study of Homo sapiens with 6 samples.

Results

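The genes described here are 8 markers of intestinal identity in SW480 cells, an established line from a human colon adenocarcinoma. They were listed by name: the transcription factors CDX1, CDX2, HNF4A, GATA6 and KLF5, and the markers VIL1, CDH17 and LGALS4, out of 56303 gene symbols in the deposited count table. The study sequenced mRNA from cells infected with lentivirus carrying a non-silencing hairpin (shCtrl, genotype given as WT) or a hairpin against the splicing factor RBM39 (shRBM39, genotype given as RBM39 knockdown), to look for alternative splicing that depends on RBM39. Each group had 3 libraries. Per the study's methods, infected cells were selected with puromycin as stable clonal lines, so a difference between hairpins and a difference between selected lines cannot be told apart, and p-values measure the spread between libraries of these lines.

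Gut epithelial cells are specified and kept by a network of transcription factors. CDX1 and CDX2 are caudal-type homeobox factors, and CDX2 is the master regulator of the intestinal fate and a clinical marker of colorectal origin. HNF4A is a nuclear receptor that works with CDX2 on enterocyte genes, GATA6 is a zinc finger factor of endoderm and crypt cells, and KLF5 is a zinc finger factor of proliferating crypt cells. The markers lie downstream in the epithelium: VIL1 encodes villin, which bundles actin in brush border microvilli, CDH17 encodes liver-intestine cadherin, and LGALS4 encodes galectin-4 of the gut lining.

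The libraries held from 18042924 to 20428901 counts. RBM39 itself had 8894, 9504 and 8831 counts in shCtrl and 5211, 4743 and 5662 in shRBM39, or 37% less after scaling, with no overlap between groups. The epithelial markers EPCAM, KRT8, KRT18, KRT19 and CDH1 were all present in both groups, with means from 68.4 to 9309 CPM (counts scaled to library size with TMM factors) in shRBM39. Of 18243 genes tested by edgeR's quasi-likelihood test, 59.1% had an adjusted p under 0.05, which is called here a change. Those lower in shRBM39 were 29.9% of the tested genes and those higher 29.2%. Of the called genes 50.6% were lower, and 66.1% were when libraries were scaled by their totals alone. Of the epithelial markers, KRT8 and KRT18 were called higher, with log2 fold changes of 0.43 and 0.24, and CDH1 lower, at -0.39. EPCAM and KRT19 were not called.

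The knockdown libraries held less mRNA of 6 of the 8 intestinal identity genes. CDX2 fell by 77.1% from its control level and CDH17 by 60.4%, KLF5 and GATA6 fell by 30.2% and 29.7%, and HNF4A and VIL1 by 10.5% and 6.14%. The calls of GATA6 and VIL1 were lost under some of the processing alternatives given below. CDX1 and LGALS4 had too few counts in both groups to be tested. Of the 8 genes, 6 passed the filter on low counts and were tested. All 6 were called, each of them lower in shRBM39, where 29.9% of all tested genes were called lower. In 5 of the 6 the groups did not overlap, and 32.3% of all tested genes were lower without overlap. The median log2 fold change was -0.51 over the 6 genes and -0.01 over all tested genes. The list was chosen with earlier results of these data known, so these contrasts describe it and test nothing. In these bulk libraries, fewer cells with a transcript and less transcript per cell cannot be told apart.

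**Figure D1:**
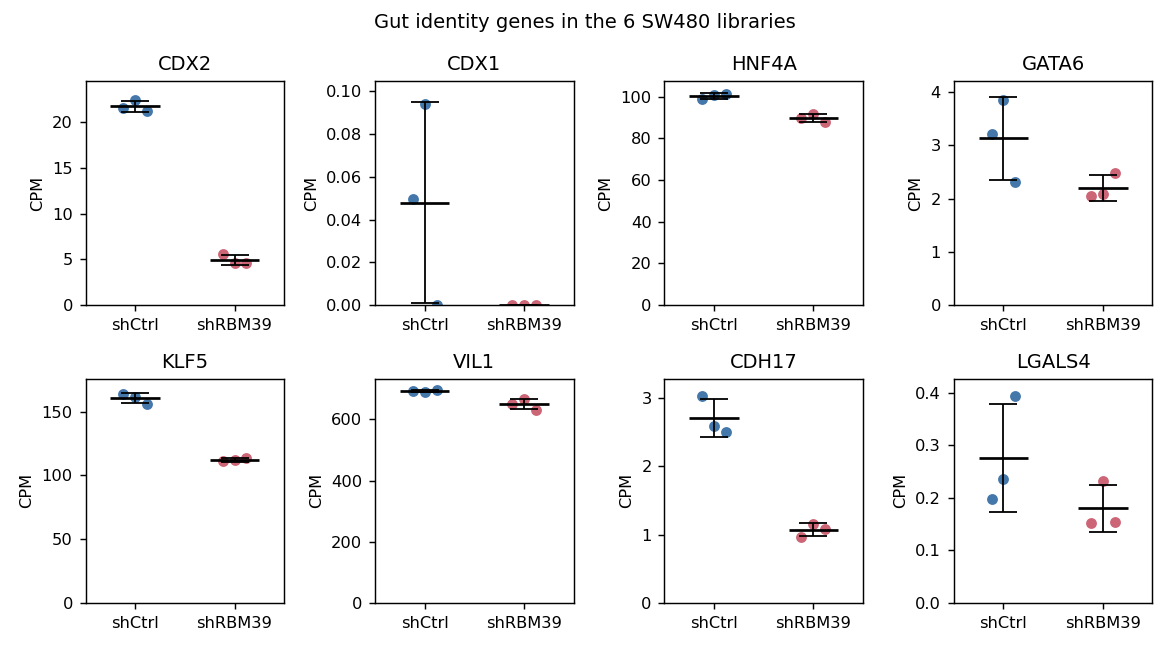
CPM of each of the 8 intestinal identity genes in the 3 shCtrl (blue) and 3 shRBM39 (red) SW480 libraries, with points for libraries, long lines for means and bars for the SD (n = 3); each panel has its own linear axis from 0. CDX2 dropped from 21.7 to 4.95 CPM, whereas the VIL1 groups, at 692 and 650 CPM, lay close together.

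Levels were first set in order per length, as RPKM (reads scaled to exon length and library size). In shCtrl, VIL1 stood highest with a mean of 104 RPKM, above 97.7% of the tested genes. KLF5 followed at 43.0 RPKM, then HNF4A at 14.3 and CDX2 at 5.49. GATA6 at 0.828 RPKM and CDH17 at 0.723 overlapped between libraries, so their order was not settled, and they stood above 18.3% and 16.2% of the tested genes. LGALS4 at 0.109 and CDX1 at 0.0285 RPKM came last. Every other neighbouring pair was separated in shCtrl. The same order held in shRBM39, there with no overlap between any neighbours: 89.9 RPKM for VIL1, 27.5 for KLF5, 11.7 for HNF4A, 1.15 for CDX2, 0.535 for GATA6, 0.263 for CDH17, 0.0651 for LGALS4 and 0 for CDX1. Villin mRNA was thus abundant in these libraries, and mRNA of liver-intestine cadherin and galectin-4 scarce.

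CDX2 (chromosome 13, 27962137 to 27971139, minus strand, GRCh38) had the largest difference of the 6 tested genes. It had 433, 476 and 432 counts in shCtrl and 109, 80 and 90 in shRBM39. In CPM these were 21.5, 22.4 and 21.3 against 5.56, 4.65 and 4.65. All 3 knockdown libraries lay far below all 3 controls. The mean fell from 21.7 ± 0.616 to 4.95 ± 0.529 CPM (SD, n = 3). The log2 fold change was -2.13 (standard error 0.09, 95% interval -2.31 to -1.95), with an edgeR adjusted p of 2.44e-20. A fall of at least 2-fold was called in 4.16% of all tested genes. CDX1 (chromosome 5, 150166795 to 150184558), the other caudal factor, had 1, 2 and 0 counts in shCtrl and 0 in each shRBM39 library. A count of 0 allows up to 3 counts, or 0.0511 CPM over the 3 shRBM39 libraries, for counting error only. Both groups were at or below that limit, so no fold is given, and a change of CDX1 was not detectable at this depth.

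CDH17 (chromosome 8, 94127171 to 94217303, minus strand) was the other gene past 2-fold. It is an adhesion molecule of the gut epithelium and is used as a marker of intestinal differentiation. It had 61, 55 and 51 counts in shCtrl and 19, 20 and 21 in shRBM39, or 3.03, 2.59 and 2.51 against 0.970, 1.16 and 1.08 CPM. The groups did not overlap although the gene was low in both. Its mean fell from 2.71 ± 0.278 to 1.07 ± 0.0966 CPM (SD, n = 3), and its log2 fold change was -1.34 (standard error 0.21, 95% interval -1.76 to -0.91, edgeR adjusted p 1.11e-06). On log2(RPKM + 1), where differences at such low levels are damped, it was -0.45 and still called.

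KLF5 (chromosome 13, 73054976 to 73077542) gave a smaller difference with little spread. Its values were 164, 162 and 156 CPM in shCtrl and 111, 112 and 113 CPM in shRBM39. The lowest control was well above the highest knockdown library. The mean fell from 160.5 ± 4.15 to 112 ± 1.31 CPM (SD, n = 3), and its log2 fold change was -0.52 (standard error 0.04, 95% interval -0.60 to -0.44, edgeR adjusted p 8.61e-14).

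GATA6 (chromosome 18, 22169443 to 22202528) had a log2 fold change of like size, -0.51, at far lower counts. It had 65, 82 and 47 counts in shCtrl and 40, 36 and 48 in shRBM39. In CPM these were 3.23, 3.86 and 2.31 against 2.04, 2.09 and 2.48. The groups overlapped, since shCtrl replicate 3 lay within the knockdown range. The standard error was 0.19, the 95% interval -0.88 to -0.13 and the edgeR adjusted p 0.0181. The call was lost in DESeq2 (-0.50). It was also lost without shCtrl replicate 1 (-0.48) or 2 (-0.33) and without shRBM39 replicate 1 (-0.45) or 2 (-0.47). An antisense gene listed as RP11-627G18.1 shares 321 exon bases with GATA6 and had between 8 and 20 counts per library. Its log2 fold change was -0.20 (edgeR adjusted p 0.615), and without a stated strand setting the split of reads between them is uncertain.

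HNF4A (chromosome 20, 44355700 to 44434596) differed little but without overlap. It had 98.65, 100.7 and 101.3 CPM in shCtrl and 89.9, 91.6 and 87.6 CPM in shRBM39. The log2 fold change was -0.16 (standard error 0.04, 95% interval -0.24 to -0.08, edgeR adjusted p 0.000931). The gene has alternative promoters, and the counts merge the transcripts of all of them, so a shift between promoters would not show. The value moved with the scaling, to -0.29 under library totals alone and -0.12 after a correction for GC content and gene length, and it was called in all of these.

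VIL1 (chromosome 2, 218419092 to 218453295) was the most abundant of the 8 genes and, of those tested, moved least. Its values were 693, 690 and 695 CPM in shCtrl and 651, 667 and 632 CPM in shRBM39. The groups did not overlap, but the gap between the nearest libraries was small beside the level. The log2 fold change was -0.09 (standard error 0.04, 95% interval -0.17 to -0.02, edgeR adjusted p 0.0298). It was not called with no filter on low counts, after the GC and length correction (-0.05), or without any one of shCtrl replicates 1 and 3 and shRBM39 replicates 1 and 3 (-0.09 to -0.07). VIL1 shares 3045 exon bases with USP37, a deubiquitinase gene on the opposite strand, which fell from 63.8 ± 3.42 to 38.8 ± 1.35 CPM (SD, n = 3). How reads in the shared bases were assigned is not stated.

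LGALS4 (chromosome 19, 38801671 to 38813364, minus strand) had 4, 5 and 8 counts in shCtrl and 3, 4 and 3 in shRBM39. The sums of 17 and 10 counts give a ratio of 0.593 with an exact 95% interval from 0.243 to 1.37, which covers counting error only. The exact permutation p was 0.2, two-sided, where 0.1 is the smallest that 3 libraries against 3 can give. Changes of LGALS4 within these bounds were not detectable at this depth. None of the 8 genes had a record among the 1582 listed splicing events in the authors' deposited table. Those events covered 1198 gene symbols, beside 18243 genes tested for counts, so most genes had no record. The absence does not show that splicing of the 8 genes was unchanged.

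**Figure D2:**
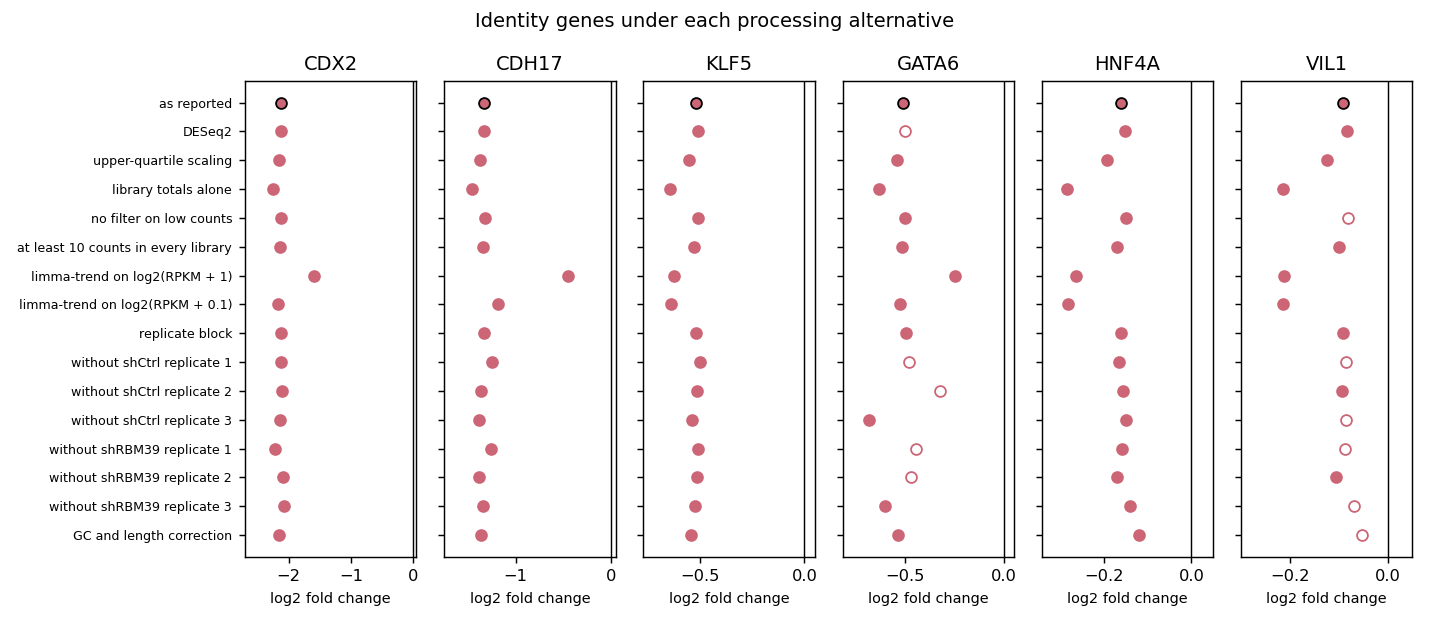
The log2 fold change (shRBM39 over shCtrl) of the 6 tested identity genes as reported and under each processing alternative that tested against no change; filled points had an adjusted p under 0.05 and open points did not. CDX2, CDH17, KLF5 and HNF4A are filled throughout, while GATA6 and VIL1 have open points, and every point lies below 0.

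The 250 bases before the starts of 5 of the 8 genes were searched for the core motifs of gut factors. Reported are 7 starts from the RefSeq promoter table (GRCh38.p14), those of CDX2, HNF4A, GATA6, KLF5 and LGALS4. No window of CDX1, VIL1 or CDH17 is reported here, so nothing is said of motifs before these genes. Motifs were searched on both strands as AGATAA for GATA factors, TTTATNG for CDX factors, TGTTTAC for FOXA factors, CAAAGTCCA for HNF4 and CCNCNCCC for KLF and related factors. Of all 35116 windows of this length, 9.17% held the GATA, 8.93% the CDX, 2.98% the FOXA, 0.325% the HNF4 and 53.4% the KLF letters. The window of CDX2 held 1 match each to the GATA, CDX and FOXA letters and none to the HNF4 letters. The more upstream start of HNF4A held 1 GATA match and that of KLF5 held 1 CDX match. The KLF letters, which are common, were found before the other starts of HNF4A and KLF5 and before GATA6 and LGALS4. A match describes these letters only and is no measure of binding. All 250 bases of the CDX2 window lie within exons of the count table's gene model. The same holds for all 250 bases of the LGALS4 window. It also holds for 213 bases of the more downstream KLF5 window and 146 of the GATA6 window. The more upstream KLF5 window and both HNF4A windows had 0 such bases.

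The following stretches of 30 bases carry the matches to letters other than those of KLF, in the sense of the transcript with the matching letters in capitals, and are shown to place them relative to the gene with the largest fall and to 2 others that fell. The CDX2 stretches lie on the minus strand at chr13:27969479-27969508, chr13:27969417-27969446 and chr13:27969316-27969345, with matches that begin 181, 119 and 13 bases before the start. The KLF5 stretch is at chr13:73054769-73054798 and the HNF4A stretch at chr20:44355661-44355690, both on the plus strand, with matches that begin 195 and 26 bases before the start.
CDX2, CDX letters: ggaagctcttaaCAATAAAggtttgaatat
CDX2, GATA letters: cctccctcccctTTATCTtttaaaatgcaa
CDX2, FOXA letters: attactaatagagtcttGTAAACActcgtt
KLF5, CDX letters: tacacacttcatCTATAAAtcaacatctaa
HNF4A, GATA letters: gaagaatcaataAGATAAccgggcggtggc

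A list of 18 other gut transcription factors was then read from the same fit. Of these, 13 could be tested, and 8 were called, 6 lower and 2 higher, where 59.1% of all tested genes were called, 29.9% lower and 29.2% higher. KLF4, a factor of differentiated surface cells, fell from 6.29 ± 0.734 to 2.40 ± 0.389 CPM (SD, n = 3), and its log2 fold change was -1.40 (edgeR adjusted p 4.42e-10). HNF4G, the close paralog of HNF4A, fell by 1.02 on the log2 scale, from 5.88 to 2.89 CPM. The forkhead factors FOXA3 and FOXA2 fell from 10.6 to 5.27 CPM and from 100.3 to 68.3 CPM. SOX9, a factor of crypt progenitors, and the epithelial ETS factor ELF3 had log2 fold changes of -0.77 and -0.74. FOXA1 and GATA4 had 0 counts in all libraries, and GATA5 and PDX1 were too low to test.

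**Figure D3:**
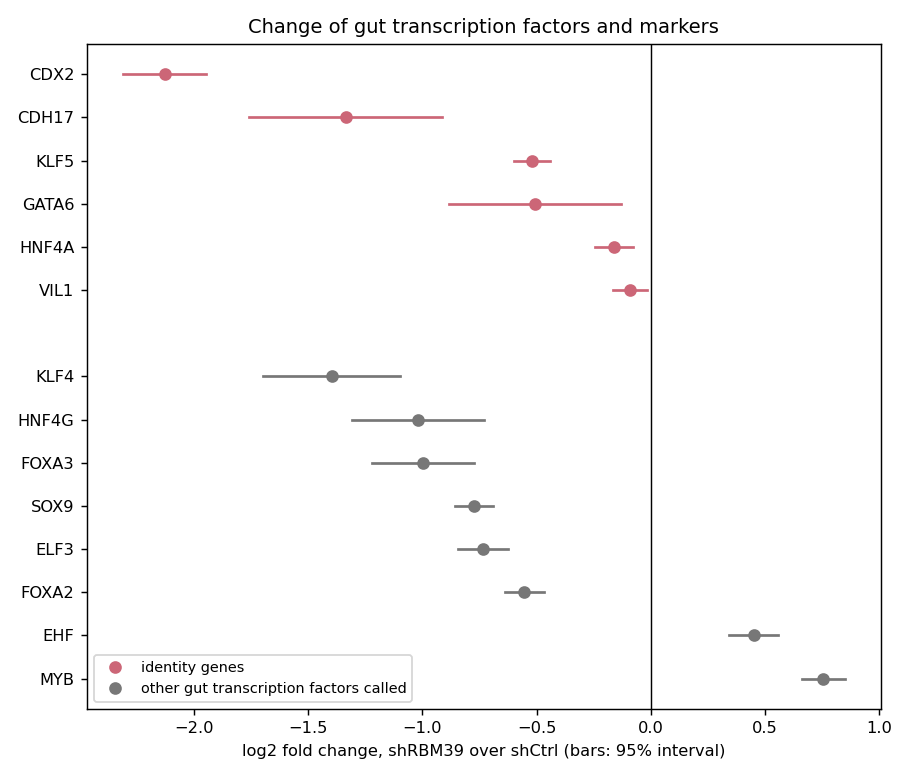
The log2 fold change (shRBM39 over shCtrl) of the tested identity genes (red) and of the 8 other gut transcription factors that were called (grey), with 95% intervals from the edgeR fit; filled points had an adjusted p under 0.05. The lowest values are those of CDX2 at -2.13 and KLF4 at -1.40, and the highest that of MYB at 0.76.

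Gut factors did not all move down. MYB, which is needed for crypt proliferation, rose from 51.3 ± 0.828 to 86.5 ± 4.21 CPM (SD, n = 3), and its log2 fold change was 0.76 (edgeR adjusted p 3.52e-16). EHF, an epithelial ETS factor like ELF3, rose by 0.45 on the log2 scale. PROX1, ISX and ONECUT2 were not called. The 95% intervals of their log2 fold changes were -0.06 to 0.10 for PROX1, -0.35 to 0.16 for ISX and -0.39 to 0.14 for ONECUT2. For PROX1, which stood at 136 CPM in shCtrl, a fall of the size seen in CDX2 or KLF4 lies outside this interval. PROX1 was called lower, at -0.11, under library totals alone and higher, at 0.10, after the GC and length correction.

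Next, genes that such factors are known to serve were examined. Of 30 brush border and enterocyte genes, 8 had 0 counts in all libraries, among them the digestive enzyme gene SI and the lipid carrier genes FABP2, APOA4 and APOB, and 13 could be tested. Called were 10, 6 lower and 4 higher, beside 29.9% and 29.2% of all tested genes. The protocadherin gene CDHR2, which links microvilli at their tips, fell from 17.5 ± 0.571 to 6.08 ± 0.425 CPM (SD, n = 3), and its log2 fold change was -1.52 (edgeR adjusted p 1.48e-16). Its partners in the same adhesion complex, USH1C and MYO7B, had log2 fold changes of -0.86 and -2.03, the latter from only 1.04 CPM in shCtrl. The actin bundling genes ESPN and PLS1 fell by 0.41 and 0.30 on the log2 scale. The glucose transporter gene SLC5A1 was at -1.30, with means of 1.285 CPM in shCtrl and 0.524 CPM in shRBM39. With a minimum of 10 counts in every library, MYO7B and SLC5A1 were not tested. Under that filter 7 genes of the list were called, 4 of them lower. USH1C was the only gene of this list with splicing records, 5 of them in the authors' deposited table, whose groups are named only 1 and 2.

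The 4 higher genes of this list were KRT20, ANPEP, CA2 and FABP1. KRT20, a keratin of mature surface cells, rose from 0.310 ± 0.209 to 1.12 ± 0.292 CPM (SD, n = 3), and its log2 fold change was 1.82 (edgeR adjusted p 8.41e-05). Without shCtrl replicate 1, the highest control, it was 2.49, and with a minimum of 10 counts in every library KRT20 was not tested. ANPEP (aminopeptidase N), CA2 (carbonic anhydrase 2) and FABP1 (a fatty acid binding protein) were at 0.92, 0.67 and 0.43, with means between 2.61 and 9.86 CPM in shRBM39. The FABP1 call was lost on both log2 RPKM scales. The other 3 tested genes were not called. Among them was EZR, which links actin to the membrane of microvilli, at 961 CPM in shCtrl and with an interval of -0.02 to 0.14, and without shCtrl replicate 1 it was called higher, at 0.10.

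**Figure D4:**
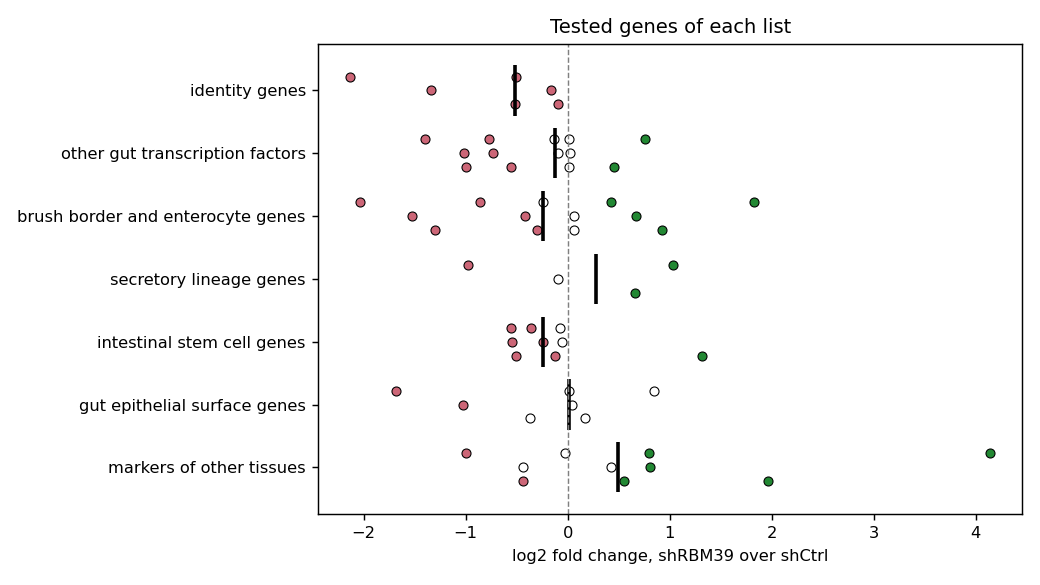
The log2 fold change (shRBM39 over shCtrl) of every tested gene of each list; red and green points were called lower and higher, open points were not called, and thick lines are medians. The identity genes lie wholly below 0, while every other list drawn, except the gut surface genes, has called genes on both sides.

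Most secretory lineage genes were too low to test. TFF3 was not scarce, at a mean of 17.9 RPKM in shCtrl, above 85.4% of the tested genes. Of 19 genes, 4 could be tested and 3 were called, 2 higher and 1 lower, beside 59.1% of all tested genes called, and ATOH1, the factor that starts this lineage, had 0 counts. TFF3, a goblet cell peptide, fell from 20.1 ± 1.95 to 10.2 ± 0.329 CPM (SD, n = 3), and its log2 fold change was -0.98 (edgeR adjusted p 1.78e-12). LYZ, a Paneth cell enzyme, and MUC2, the goblet cell mucin, rose by 1.03 and 0.66 from means of 1.205 and 1.52 CPM. The MUC2 groups overlapped, and its call was lost on both log2 RPKM scales, without shCtrl replicate 2 (0.42) and without shRBM39 replicate 1 (0.50). GFI1 was not called, with an interval of -0.45 to 0.25.

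Of 10 intestinal stem cell genes, 9 could be tested and 7 were called, 6 lower and 1 higher, beside 29.9% lower and 29.2% higher over all tested genes. LGR5, the receptor that marks crypt base stem cells, fell from 8.82 ± 0.618 to 6.23 ± 0.09 CPM (SD, n = 3), and its log2 fold change was -0.50 (edgeR adjusted p 7.97e-05). TNFRSF19, SMOC2 and ZNRF3 were at -0.55, -0.54 and -0.36. The stem cell factor ASCL2 and PROM1 differed by only -0.13 and -0.24. The ASCL2 call was lost in DESeq2, with no filter, and without shCtrl replicate 2 (-0.09) or shRBM39 replicate 3 (-0.09), and the PROM1 call without shRBM39 replicate 2 (-0.15). MSI1 rose by 1.32 from 0.506 CPM, and with a minimum of 10 counts in every library it was not tested. The other 2 tested genes were not called.

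Among 10 other surface genes of the gut epithelium, 7 could be tested and 2 were called, both lower, against 59.1% of all tested genes called. These were the tight junction genes CLDN7 at -1.68 and CLDN3 at -1.02. CLDN7 stood at 4.92 ± 0.38 CPM in shCtrl and 1.52 ± 0.166 CPM in shRBM39 (SD, n = 3). EPCAM, the general epithelial marker at 591 CPM in shCtrl, was not called, with an interval of -0.07 to 0.10, and under library totals alone it was called lower, at -0.11. The other 4 tested genes were not called either, and CEACAM5, CEACAM6 and PIGR were too low to test.

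Markers of other tissues were counted beside these. Of 20 such genes (stomach, squamous epithelium, liver, stroma, vessels and blood), 10 could be tested, 5 were called higher and 2 lower, where 29.2% and 29.9% of all tested genes were. Their summed level ran from 186 to 190 CPM in shCtrl and from 221 to 237 CPM in shRBM39. Without KRT5 and MUC6, singled out after their values were seen, the sum of the other 18 genes ran from 176 to 180.5 CPM in shCtrl and from 155.5 to 164 CPM in shRBM39. SOX2 held a large part of that sum, with means of 87.9 CPM in shCtrl and 64.8 CPM in shRBM39. COL1A1, PECAM1 and PGC, also among the 18, were called higher. The squamous keratin gene KRT5 rose by 4.14 on the log2 scale, and the gastric gland mucin MUC6 rose from 7.49 ± 0.526 to 29.2 ± 2.58 CPM (SD, n = 3), by 1.96. The gastric gene PGC rose by 0.55, a call lost without shCtrl replicate 2 (0.36) or shRBM39 replicate 3 (0.42), in DESeq2, under library totals and on both RPKM scales. The gastric surface mucin MUC5AC fell from 3.74 to 1.86 CPM, and the foregut factor SOX2 was at -0.44. COL1A1 and PECAM1 rose by 0.81 and 0.79 from 5.57 and 3.36 CPM. TP63, GKN1, TTR and the leukocyte gene PTPRC had 0 counts in all libraries. The part of these genes in the fall of the identity genes was not tested.

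Finally, the genes whose pattern over the 6 libraries was most like that of CDX2 were KIFC3, a kinesin gene, BICDL2 and STIM1, a calcium sensor gene. Their Pearson correlations of log2(CPM + 0.5) with CDX2 were 0.9998, 0.9996 and 0.9995, and 371 of the 12058 genes averaging 5 CPM or more were above 0.99. The points are 2 groups of 3 libraries, so any gene that separates the groups with little spread scores high. BICDL2 fell from 15.2 to 6.21 CPM, a smaller ratio than that of CDX2, and KIFC3 and STIM1 fell by 37.4% and 31.1%.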

How the data were processed

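Groups and replicate numbers were taken from sample titles, and the columns named NC were taken to be shCtrl, since no other control exists. The deposited tables hold raw counts for each gene symbol, and RPKM that the authors derived from them, which a recalculation met within 1.2e-13 of each value. The submitters' processing notes name Trimmomatic 0.36, STAR 2.5.3a, featureCounts of Subread 1.5.1 and edgeR 3.12.1. The annotation release, strand setting and treatment of multi-mapped reads are not given in the sources used here, and they bear most on genes that overlap others. The members, the gene lists and the tests were chosen with earlier results of these data known.

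Counts were tested with edgeR 4.0.16 in R 4.3.3 (filterByExpr, TMM, quasi-likelihood F-test, group as the only term, adjusted p under 0.05 by Benjamini and Hochberg across 18243 genes). Standard errors come from the log2 fold change and its F statistic. The fit was tested on simulated counts. Within groups, replicates differed by more than counting noise (chi-square over its degrees of freedom, 2.01 to 3.90). Deviations of same-numbered libraries correlated at 0.006, -0.046 and 0.037, so the numbers were not used as pairs. Besides all identity genes, the text names each called gene of a list with an absolute log2 fold change of at least 1, up to 4 further called genes that averaged 1 CPM or more, largest first, and genes that overlap an identity gene. FOXA2, EHF, ESPN, PLS1, ASCL2, PROM1 and the genes not called were named after their values were seen. Alternatives were DESeq2 1.42.0, limma 3.58.1 on log2 RPKM, other scalings and filters, a replicate block, each library left out, and a correction for GC content and length added after seeing the data. The authors' deposited splicing table also holds p-values and differences from rMATS, which were not used. Some genes of the transcription factor list enter its counts and are not reported here by name.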

Additional observations from a re-analysis of the deposited data

How the results depend on the processing

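The 6 tested identity genes stayed lower in shRBM39 under every alternative that was run. CDX2, CDH17, KLF5 and HNF4A kept their calls at an adjusted p under 0.05 in every alternative that tested against no change, with CDX2 between -2.25 and -1.60, CDH17 between -1.46 and -0.45, KLF5 between -0.64 and -0.50 and HNF4A between -0.29 and -0.12. GATA6 lost its call in DESeq2, at -0.50, and ranged from -0.68 to -0.33 with one library left out. VIL1 lost its call with no filter, at -0.081, and after the GC and length correction, at -0.053, and ranged from -0.106 to -0.069 with one library left out. The cause of these losses was not tested. Set against a log2 fold change of 0.5, which asks for a larger difference, the test called 2 of the 8 identity genes, 6 enterocyte genes, 1 stem cell gene and 2232 genes in all. With the replicate number as a block, 6 identity genes and 10810 genes in all were called, and no call of an identity gene changed. Of the calls over all genes, 50.6% were lower, against 66.1% under library totals alone, which moved the median of all genes to -0.14. At an adjusted p under 0.01, 4 identity genes and 9025 genes in all were called, and with one library left out from 4 to 5 identity genes and from 10138 to 10263 genes in all. Of 715 values of other named genes, 17 lost their call, those of MUC2, PGC, FABP1, ASCL2 and PROM1, and 2 gained one, PROX1 at 0.099 after the GC and length correction and EZR at 0.104 without shCtrl replicate 1. Direction turned in 17 values, all of genes not called as reported. PROX1 turned to -0.015 under upper-quartile scaling and without shCtrl replicate 1, to -0.107 under library totals, and to -0.099 and -0.104 on log2(RPKM + 1) and log2(RPKM + 0.1). EZR turned to -0.062 under library totals and to -0.061 and -0.062 on these RPKM scales. EPCAM turned to -0.016 under upper-quartile scaling, -0.106 under library totals, -0.108 on both RPKM scales, -0.021 after the GC and length correction, and to -0.001 and -0.037 without shCtrl replicate 2 and shRBM39 replicate 3. ONECUT2 turned to 0.021 after the GC and length correction and GFI1 to 0.111 without shCtrl replicate 2. With one library left out, PROX1 ranged from -0.015 to 0.043, GFI1 from -0.212 to 0.111 and EPCAM from -0.037 to 0.064. Of the values that turned, those of PROX1 and EPCAM under library totals were called. Counts as low as those of CDX1 and LGALS4 set the limit at this depth.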
